A study of Homo sapiens with 4 samples.

Results

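The cytoplasmic polyadenylation genes examined here were the 4 CPEB genes (CPEB1, CPEB2, CPEB3 and CPEB4), the poly(A) polymerase gene TENT2, the deadenylase genes PARN, PAN2 and PAN3, and the adaptor genes TOB1 and TOB2. They are 10 of the 35820 rows of the count table, found by gene symbol. The set was built around CPEB1 because its deposited counts were 0 in both knockout libraries, so the values of CPEB1 are given as a description and are not tested. The other 9 genes were chosen by family and function, with earlier results of these data known. The cells were HCT116, a human colon carcinoma line. The wild-type (WT) group was the unedited line with 2 libraries. The knockout (KO) group was the CRISPR clone E2-4, edited with a guide against exon 2 of TOP3B, a topoisomerase acting on RNA and DNA, also with 2 libraries. All cells were grown in the same medium, and ribosomal RNA was depleted before stranded libraries were made. A single clone was compared with its parental line, so clone and genotype cannot be told apart, and no label tells if same-group libraries were separate cultures. The spread behind each p-value may thus be technical. TOP3B itself had 57.1 and 66.5 CPM in WT and 43.9 and 54.7 CPM in KO (adjusted p = 0.522 in edgeR), where CPM are counts scaled to the library size times its TMM normalisation factor, so its RNA level does not check the edit. A gene is said to be called, or to pass, at an adjusted p under 0.05.

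CPEB proteins bind the cytoplasmic polyadenylation element, a short U-rich motif near the end of many mRNAs, and can hold such mRNAs silent or promote their translation. In the best-known case, the maturing oocyte, CPEB1 gathers the poly(A) polymerase GLD2 (encoded by TENT2) and the deadenylase PARN on the same mRNA, and the tail grows once PARN leaves. PAN2 and PAN3 form the deadenylase that trims long tails first, and the TOB proteins bridge RNA-bound proteins, CPEB3 among them, to the CCR4-NOT deadenylase. These steps act on tail length and translation, neither of which was measured; the values below are RNA levels.

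To show the kind of sequence at issue, the element was looked for as TTTTAT or TTTTAAT on the transcript strand in the last 100 bases of 1 coding transcript per gene from GENCODE 29 (GRCh38). It was present in 2078 of the 10574 tested genes that could be matched (19.7%). It stood in 5 of 13 mRNAs taken as reported CPEB targets and, of the 10 genes examined here, in PAN2 alone. The sites of PAN2 and of the mitotic cyclin gene CCNB1, a classical target, are shown with the element in capitals. They began 42 and 70 bases before the transcript end.
PAN2 site: gtaaactgcatgTTTTATaaaataaaaata
CCNB1 site: gaaaaatgagaaTTTTATattctaagccag

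CPEB1 was the 1 gene of the set that was undetected in KO. Its counts were 84 in WT replicate 1, 87 in WT replicate 2, and 0 in each KO library. This was 6.47 and 7.12 CPM in WT, with a mean of 6.80 ± 0.461 (SD, n = 2). The WT libraries were close to each other. That the groups did not overlap follows from the choice of CPEB1 for its 0 counts in KO. A count of 0 allows up to 0.176 CPM in the deeper KO library and 0.271 CPM in the shallower one, and against a floor of 3 counts summed over the KO group CPEB1 was at least 63.7-fold lower. Without KO replicate 2, the deeper library, this bound dropped to 25.1-fold, and without KO replicate 1 it was 38.6-fold. Floors and intervals cover counting error only. In bulk RNA, fewer expressing cells and less RNA per cell cannot be told apart.

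Counts of 0 in both KO libraries were rare among genes with as many WT counts as CPEB1. The minimum of 84 was CPEB1's own lower WT count, and CPEB1 was chosen for its zeros, so the tally below is a description only. It leaves out genes with fewer counts in WT and genes with a few counts left in KO. Of 7790 genes with at least 84 counts in both WT libraries, 3 had 0 counts in both KO libraries (0.0385%), and of 7749 genes with at least 84 counts in both KO libraries, 0 were at 0 in both WT libraries. The other two genes were EHF, an epithelial ETS factor, and BLOC1S5-TXNDC5, a readthrough gene whose estimate is uncertain because it shares sequence with its components. Estimates of 0 also occurred within a group: 22 genes had 0 in 1 WT library and at least 84 counts in the other, and 18 genes did so in KO. CPEB1 could not be among these, because it was chosen for 0 in both KO libraries and its own WT counts set the minimum. The part of such estimates in its zeros was not tested. The 5 genes whose log2 CPM across the 4 libraries lay nearest to CPEB1 were CA9, LINC02895, MIR210HG, EHF and GPRASP1, at Euclidean distances of 0.47, 0.81, 1.12, 1.22 and 1.29 log2 units. Each had 0 counts in both KO libraries, which follows from measuring nearness to a gene chosen for its zeros there. CA9, a carbonic anhydrase gene, had 91 and 63 counts in WT.

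The expressed neighbours of CPEB1 were detected in both groups. CPEB1 lies on chromosome 15, and of the 5 protein-coding genes on each side with a row in the table, 7 of 10 passed edgeR's filter on low counts. EdgeR's quasi-likelihood test and DESeq2 each called 0 of the 7 after Benjamini-Hochberg adjustment, with 0 at an unadjusted p under 0.05 in edgeR. Their log2 fold changes, KO over WT, ran from -0.82 for MEX3B to 0.23 for SAXO2. WHAMM, which drives actin assembly on membranes, had 27.4 and 26.8 CPM in WT and 29.7 and 30.4 CPM in KO. HOMER2, a scaffold protein of synapses, had 4.47 and 5.65 CPM in WT and 5.42 and 5.70 CPM in KO. AP3B2, the coding gene directly beyond the antisense gene, was at or under 0.328 CPM in every library. None of the 7 tested neighbours had a difference near the bound given for CPEB1.

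**Figure D1:**
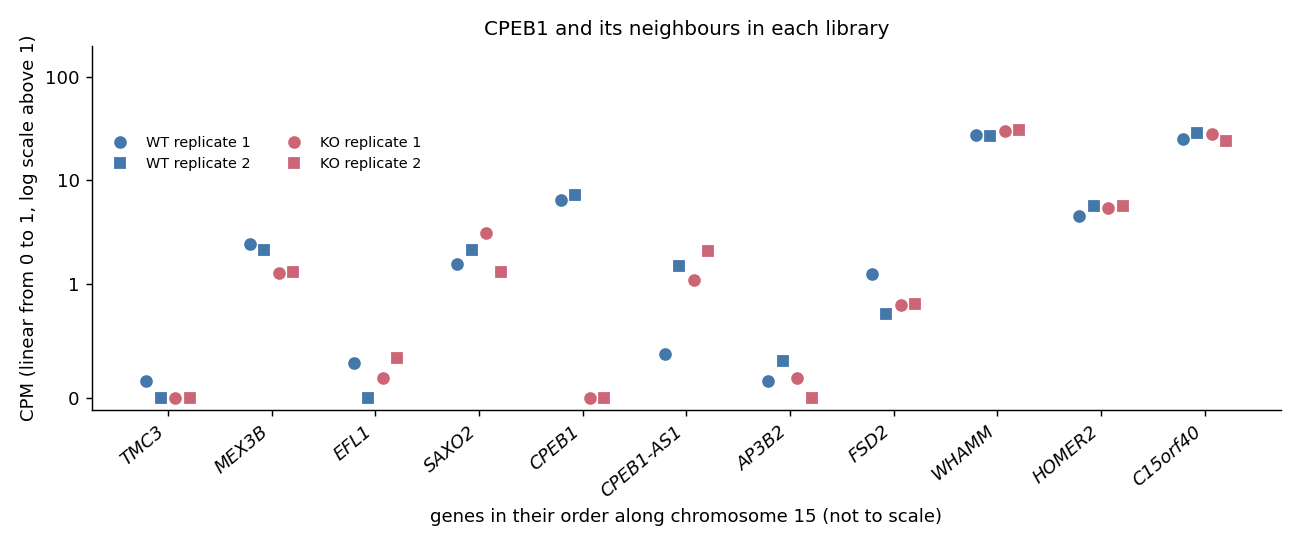
CPM of CPEB1, its antisense gene and nearby protein-coding genes, in their order along chromosome 15 with distances not drawn. Blue marks are WT and red marks KO, circles replicate 1 and squares replicate 2, and the axis is linear below 1 CPM and logarithmic above. CPEB1 is at 6.47 and 7.12 CPM in WT and at 0 in KO, while WHAMM and HOMER2 are detected in all 4 libraries.

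CPEB1-AS1, a noncoding gene on the opposite strand that overlaps the start of CPEB1, was still detected in KO. Its counts were 5 and 18 in WT and 12 and 35 in KO, or 0.385 and 1.47 CPM against 1.08 and 2.05 CPM. The groups overlapped, and the log2 fold change was 0.77 (SE 0.76; adjusted p = 0.693 in edgeR). The sources used here do not say whether the counting used strand, so reads of the overlapping stretch cannot be assigned to either gene with certainty. The RefSeq promoter windows, which run from 250 bases before to 50 after an annotated start, show how close both genes lie. One of the 4 CPEB1 windows shares 261 bases with the window of CPEB1-AS1, whose start lies 162 bases upstream of that CPEB1 start and points the other way. This window holds 43 CG pairs, a number reached by 4.98% of 35116 human promoter windows of the same length. The CPEB1 window farthest upstream holds 5, a number reached by 70.4%. The remaining CPEB1 windows hold 29 and 40, and the window with 40 also overlaps that of CPEB1-AS1. Gene-level counts do not tell which start was in use in WT cells. The windows with 43 and 5 CG pairs are printed from RefSeq for GRCh38.p14, on the minus strand, with CG pairs in capitals. They are shown as the windows with the most and the fewest CG pairs of the 4. Promoter activity was not measured.
CPEB1 window at chr15:82647559-82647858: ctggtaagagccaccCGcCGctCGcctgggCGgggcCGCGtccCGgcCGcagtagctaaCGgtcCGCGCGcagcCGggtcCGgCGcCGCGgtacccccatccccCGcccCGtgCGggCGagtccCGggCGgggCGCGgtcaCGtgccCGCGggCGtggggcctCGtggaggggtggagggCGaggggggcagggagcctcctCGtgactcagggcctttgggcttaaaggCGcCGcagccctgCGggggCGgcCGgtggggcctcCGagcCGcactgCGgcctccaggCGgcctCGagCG
CPEB1 window at chr15:82648746-82649045: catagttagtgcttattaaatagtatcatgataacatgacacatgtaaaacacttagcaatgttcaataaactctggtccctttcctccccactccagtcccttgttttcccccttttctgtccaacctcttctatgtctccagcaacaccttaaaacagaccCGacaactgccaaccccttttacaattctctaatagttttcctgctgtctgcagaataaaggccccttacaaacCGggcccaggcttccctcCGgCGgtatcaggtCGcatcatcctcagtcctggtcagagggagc

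The other CPEB genes showed no comparable loss. CPEB4, which sustains translation late in the cell cycle and under stress, was the most counted of them, with 84.2 and 84.5 CPM in WT and 64.6 and 80.5 CPM in KO. The groups did not overlap, although KO replicate 2 lay close to the WT libraries, and the log2 fold change was -0.22 (SE 0.15; adjusted p = 0.595 in edgeR and 0.937 in DESeq2). CPEB3, which represses translation and is best known from synapses, had 6.32 and 7.78 CPM in WT and 4.79 and 7.40 CPM in KO. Its groups overlapped, with a log2 fold change of -0.20 (SE 0.34; adjusted p = 0.823 in edgeR), and without KO replicate 1 the sign turned (0.07). In WT its counts of 82 and 95 were close to those of CPEB1, and it was detected in all 4 libraries. CPEB2 was close to absent from both groups, with counts of 4 and 0 in WT and 6 and 0 in KO. The ratio of its KO to WT rate was 1.34, with an exact 95% interval from 0.319 to 6.48, so no difference was detectable at this depth. It did not pass edgeR's filter, and DESeq2 gave a log2 fold change of 0.80 (SE 3.44) with no adjusted p. The genes nearest in profile were MTRR, CEP78 and RAB23 to CPEB4, and CRTC2, PREP and ZNF385A to CPEB3. Those nearest to CPEB2, with as few counts, were IL17D, PAOX and ADAMTS7P3.

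**Figure D2:**
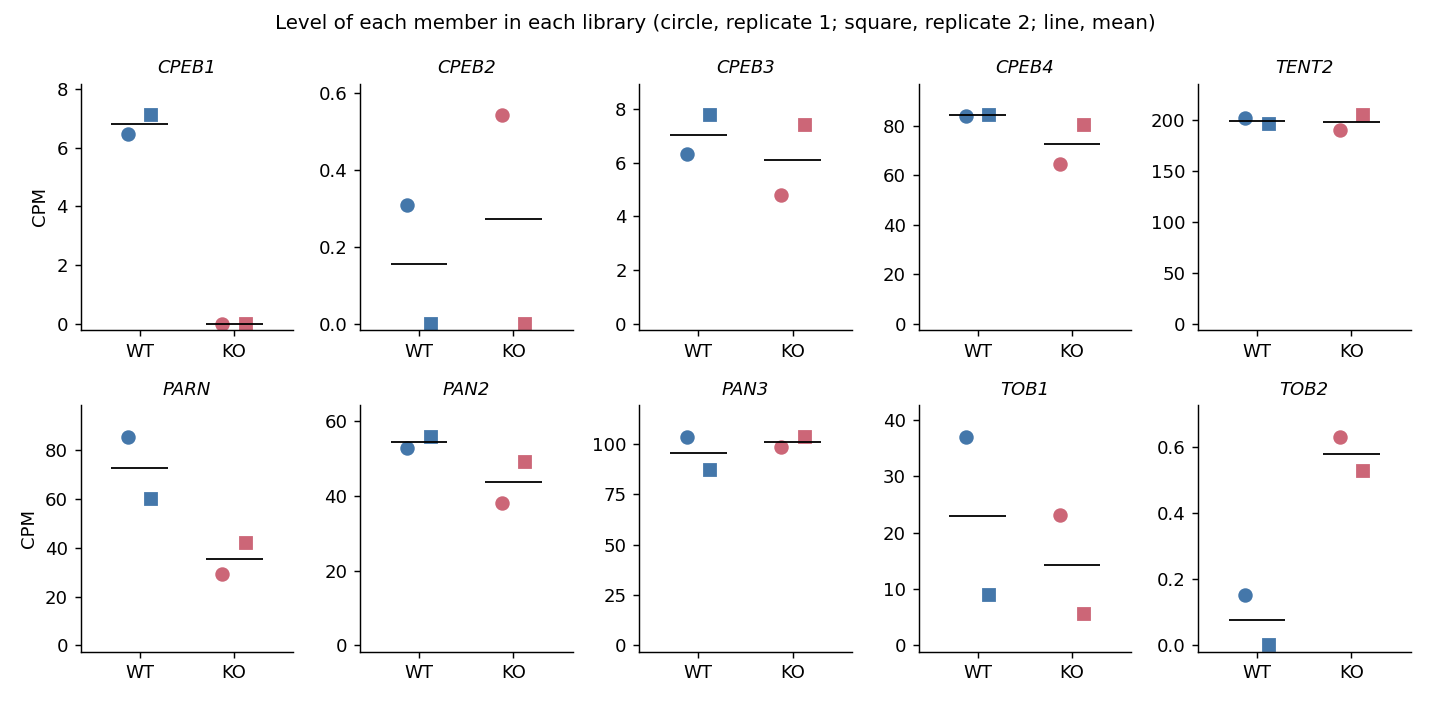
CPM of each of the 10 genes in each library, one panel per gene with its own axis from 0. Blue marks are WT and red marks KO, circles replicate 1 and squares replicate 2, and lines are group means of 2 libraries. CPEB1 is at 0 in both KO libraries, PARN is lower in both KO libraries, and TOB1 differs more between replicates than between groups.

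PARN had the largest difference among the 7 members tested beside CPEB1. This poly(A)-specific ribonuclease opposes TENT2 in the CPEB1 complex and also trims tails of small noncoding RNAs, telomerase RNA among them. Its counts were 1108 and 733 in WT and 324 and 712 in KO, which gave 85.4 and 60.0 CPM in WT and 29.3 and 41.8 CPM in KO. Both KO libraries were below both WT libraries, and the KO mean of 35.5 ± 8.86 CPM was 0.489 of the WT mean of 72.7 ± 17.9 CPM (SD over 2 libraries each). On the log2 scale the difference was -1.03 (SE 0.26; unadjusted p = 0.0107 and adjusted p = 0.338 in edgeR), so PARN did not pass the main test. It passed in DESeq2 (log2 fold change -1.03, SE 0.30; adjusted p = 0.0450). The DESeq2 call was lost without WT replicate 1 (adjusted p = 0.929), without KO replicate 1 (adjusted p = 1.00) and without KO replicate 2 (adjusted p = 0.208), while without WT replicate 2 the gene passed in both tools (edgeR adjusted p = 0.0440; DESeq2 adjusted p = 0.00277). The log2 fold change stayed between -1.31 and -0.75 in edgeR whichever library was left out. With the replicate number as a block the DESeq2 adjusted p was 0.159. Of the 10 coding neighbours of PARN on chromosome 16, a comparison added after the values were seen, 7 were tested. Both tools called 0 of them, with 0 at an unadjusted p under 0.05 in edgeR. Their log2 fold changes ran from -3.07 for NPIPA3, which had at most 26 counts in a library and has copies that share its sequence, to 1.12 for ERCC4, with adjusted p of 0.465 and 0.514 in edgeR. CPPED1, with -0.44 (adjusted p = 0.490 in edgeR), and NPIPA3 were also lower in both KO libraries than in both WT libraries. ERCC4 was higher in both, and in the other tested neighbours the groups overlapped. Of all tested genes, 23.5% were apart in each direction. BFAR, directly beside PARN, had 59.7 and 55.4 CPM in WT and 65.3 and 59.5 CPM in KO.

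The polymerase gene TENT2 differed between the groups by less than its replicates did. It had 201.9 and 195.6 CPM in WT and 190.2 and 204.6 CPM in KO, and the WT values lay inside the range of the KO values. Its log2 fold change was -0.01 (SE 0.11; adjusted p = 0.977 in edgeR). Of the whole set this was the gene with the smallest standard error, and its direction is not defined, since it turned in 6 of 13 alternatives.

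Of the PAN2-PAN3 pair, the catalytic subunit gene PAN2 had 52.9 and 55.9 CPM in WT and 38.2 and 49.0 CPM in KO. Both KO libraries were below both WT libraries, with a log2 fold change of -0.32 (SE 0.17; adjusted p = 0.525 in edgeR and 0.861 in DESeq2). PAN3, which brings PAN2 to poly(A)-binding protein, had 103.4 and 86.9 CPM in WT and 98.6 and 103.5 CPM in KO. Its groups overlapped (log2 fold change 0.09, SE 0.14; adjusted p = 0.813 in edgeR). The difference between the groups was within the replicate spread for PAN3 and did not pass either test for PAN2.

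TOB1 varied with the replicate number more than with the genotype. It had 480 and 110 counts in WT and 255 and 95 in KO, or 37.0 and 9.01 CPM against 23.0 and 5.58 CPM. Replicate 1 was 4.11-fold above replicate 2 in WT and 4.13-fold above it in KO, and the groups overlapped. The log2 fold change of -0.70 had an SE of 0.89 (edgeR adjusted p = 0.764). With the replicate number as a block the estimate was -0.69 with an SE of 0.20 (edgeR unadjusted p = 0.0195, adjusted p = 0.404). Leaving out WT replicate 1 turned the sign (0.65), and leaving out KO replicate 2 gave 0.0016. Among the 12269 tested genes, 98 (0.799%) differed at least 4-fold between replicates in both groups. The same replicate number was the higher in both groups in 57 of these 98. In 22 of the 98 it was replicate 1, as for TOB1. TOB2 was barely detected, with counts of 2 and 0 in WT and 7 and 9 in KO. The KO libraries lay above the WT libraries, and the ratio of its KO to WT rate was 7.17, with an exact 95% interval from 1.69 to 64.3 for counting error alone. It did not pass edgeR's filter. DESeq2, whose error includes the spread between replicates, gave a log2 fold change of 2.90 (SE 2.28; unadjusted p = 0.203) with no adjusted p.

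**Figure D3:**
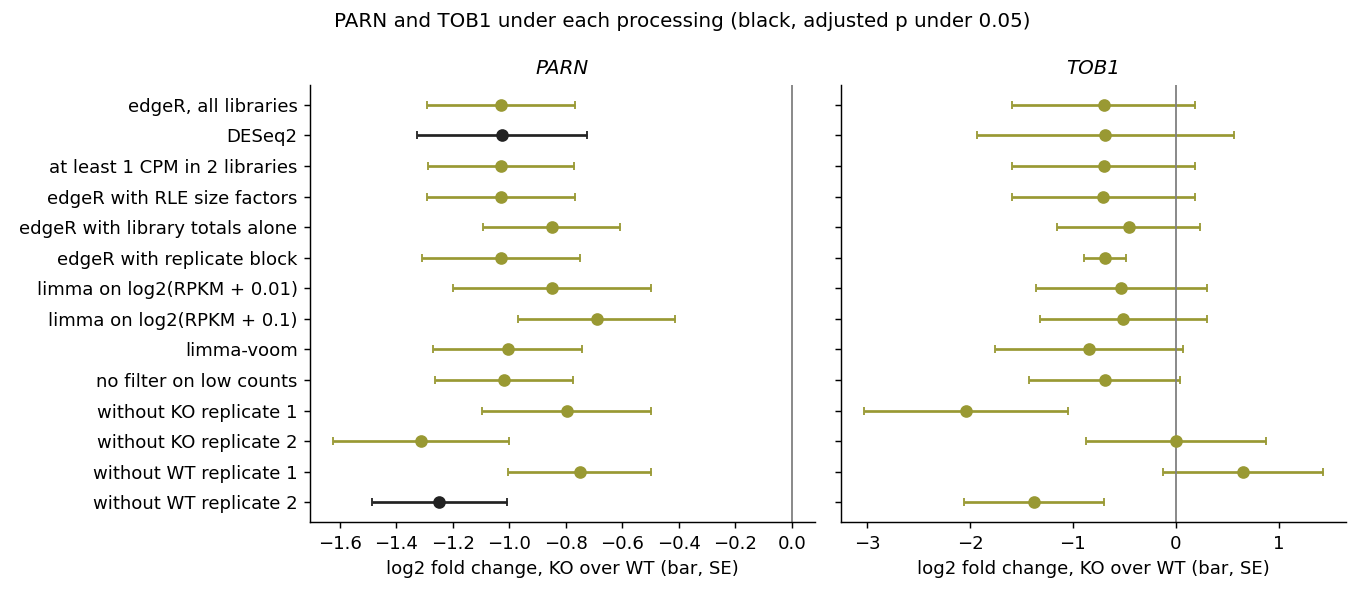
Log2 fold change (KO over WT) of PARN and TOB1 under each processing, with bars for the standard error and black marks for an adjusted p under 0.05. PARN lies below 0 in every setting shown and passes in DESeq2 with all libraries. The setting without WT replicate 2, also black, leaves 1 WT library. TOB1 lies above 0 without WT replicate 1 and at 0.0016 without KO replicate 2.

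Across the set, 7 genes other than CPEB1 were tested. EdgeR called 0 of them after adjustment, against 0.00815% of all tested genes. At an unadjusted p under 0.05, 1 was lower and 0 were higher, against 6.21% and 4.97% of all genes (11.2% in either direction). DESeq2 called 1 lower, PARN, and 0 higher, against 0.946% and 0.504% of the genes it tested (1.45% in either direction). Both KO libraries were below both WT libraries for CPEB4, PARN and PAN2, which is 3 of 7 against a background of 23.5%, and above them for 0 of 7, likewise against 23.5%. The log2 fold change was below 0 in 6 of 7, against 51.5% of all tested genes, and the median was -0.22, against -0.01. These shares describe the set and were not tested. Scaling to library totals alone moved the median of all genes to 0.14 and that of the 7 to -0.06, so relative to all genes the set kept its place.

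Levels of different genes can be compared per length only, from the RPKM that the authors deposited, read counts scaled by gene length and library total. In WT replicates 1 and 2 these were 6.41 and 8.20 for PAN2, 6.13 and 7.21 for TENT2, and 7.84 and 2.32 for TOB1, which overlap. CPEB4 followed with 1.65 and 2.00, then PAN3 with 0.764 and 0.778 and PARN with 0.582 and 0.496. CPEB1 stood at 0.101 and 0.134 and CPEB3 at 0.0256 and 0.0378, while TOB2 and CPEB2 were lowest, each listed at 0 in WT replicate 2. The lengths implied by these values include introns: 213.4 kb for CPEB3, whose genomic span is 244.4 kb, and 55.3 kb for CPEB1, whose span is 105.7 kb. RPKM of such long genes are therefore below what a spliced length would give, and this order is not an order of mRNA copies.

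The wider pathway stood near or below the background of all genes in its count of calls. Over 6 lists of related genes, 58 of 70 genes with a row were tested, and their median log2 fold change was -0.08. EdgeR called 0 after adjustment, and gave 2 higher and 1 lower at an unadjusted p under 0.05, against 11.2% of all genes in either direction. DESeq2 called 1 higher and 0 lower, against 1.45% of all genes in either direction. Both KO libraries were below WT in 9 and above in 7, each against 23.5% of all genes. The called gene was SAMD4A, a homologue of the fly translational repressor Smaug, from the list of other regulators that bind 3′ untranslated regions. It had 43.3 and 49.1 CPM in WT and 79.8 and 78.5 CPM in KO, with groups well apart. Its log2 fold change was 0.78 (SE 0.13; adjusted p = 0.253 in edgeR and 0.0138 in DESeq2). The DESeq2 log2 fold change lay between 0.69 and 0.88 whichever library was left out. The call was kept without WT replicate 2 (adjusted p = 0.0150) and lost without WT replicate 1 (adjusted p = 0.415), KO replicate 1 (1.00) or KO replicate 2 (1.00), and with the replicate block (0.275). The other 7 tested regulators did not pass, and this list had a median of 0.01, with 4 genes below 0 and 4 above. SAMD4B and ZFP36L1 had log2 fold changes of 0.24 and -0.36 (edgeR adjusted p = 0.747 and 0.762). The lowest was MSI1 with -0.91 (SE 1.41), which had 14 and 16 counts in WT and 15 and 0 in KO.

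The partners of CPEB1, 15 genes all tested, had a median of -0.045, with 10 below 0. Each tool called 0 of them, with 0 at an unadjusted p under 0.05 in edgeR. They include the cleavage and polyadenylation factors that recognise the poly(A) signal and EIF4ENIF1, a repressor that binds the cap-binding protein. CPSF4, a subunit of the signal-recognition complex, had 52.9 and 56.0 CPM in WT and 69.8 and 66.1 CPM in KO (log2 fold change 0.32; adjusted p = 0.450 in edgeR). DDX6, a helicase of silenced mRNPs, had 252.1 and 136.1 CPM in WT and 105.8 and 128.5 CPM in KO (-0.73; edgeR adjusted p = 0.474), so the WT libraries differed by more than KO replicate 2 did from WT replicate 2. In DESeq2 its unadjusted p was 0.0185 (adjusted p = 0.343). APLP1, which encodes a membrane protein of the amyloid precursor family, had 0.82 with overlapping groups (edgeR adjusted p = 0.537).

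Of the other terminal nucleotidyltransferases and poly(A) polymerases 9 were tested, with a median of -0.03. Both tools called 0, with 1 higher at an unadjusted p under 0.05 in edgeR. That gene was TUT7, a uridyltransferase that marks deadenylated mRNA for decay, with 25.4 and 22.4 CPM in WT and 34.0 and 35.6 CPM in KO (log2 fold change 0.54, SE 0.16; adjusted p = 0.378 in edgeR). Its paralogue TUT4 had 0.18 and TUT1 had -0.16 (edgeR adjusted p = 0.588 and 0.637). The CCR4-NOT complex with its BTG and NANOS1 partners had 12 tested genes and a median of -0.07. Both tools called 0, and in edgeR 0 had an unadjusted p under 0.05. CNOT11, CNOT4 and CNOT3 had the smallest p of this list, with log2 fold changes of -0.95, 0.43 and 0.49 and edgeR adjusted p of 0.467, 0.474 and 0.528. In DESeq2 the unadjusted p of CNOT11 was 0.0329 (adjusted p = 0.455). The TOB relatives BTG1, BTG2 and BTG4 did not pass the filter.

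Among poly(A)-binding proteins 6 genes were tested, with a median of -0.31. Both tools called 0, with 0 at an unadjusted p under 0.05 in edgeR. PABPC1, the main cytoplasmic one, whose estimate is uncertain because it has closely similar copies, had 197.8 and 80.8 CPM in WT and 91.4 and 73.5 CPM in KO (log2 fold change -0.76, SE 0.43; adjusted p = 0.536 in edgeR), with WT replicate 1 far above the other 3 libraries. PABPC4 and PAIP1 had 0.18 and -0.31 (edgeR adjusted p = 0.583 and 0.495). The reported CPEB target mRNAs had 9 tested genes with a median of -0.28 and 8 below 0, against 51.5% of all genes. Both tools called 0, with 1 lower at an unadjusted p under 0.05 in edgeR, against 6.21% of all genes. That gene was VEGFA, an angiogenic factor, with 133.3 and 138.4 CPM in WT and 98.7 and 109.9 CPM in KO (log2 fold change -0.38, SE 0.12; adjusted p = 0.389 in edgeR). CCNB1, whose element is shown above, had 1258 and 761.2 CPM in WT and 766.0 and 773.9 CPM in KO (-0.39; edgeR adjusted p = 0.574), so that WT replicate 1 alone stood apart. HIF1A, which encodes a subunit of the hypoxia-inducible factor, had -0.28 (edgeR adjusted p = 0.522).

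**Figure D4:**
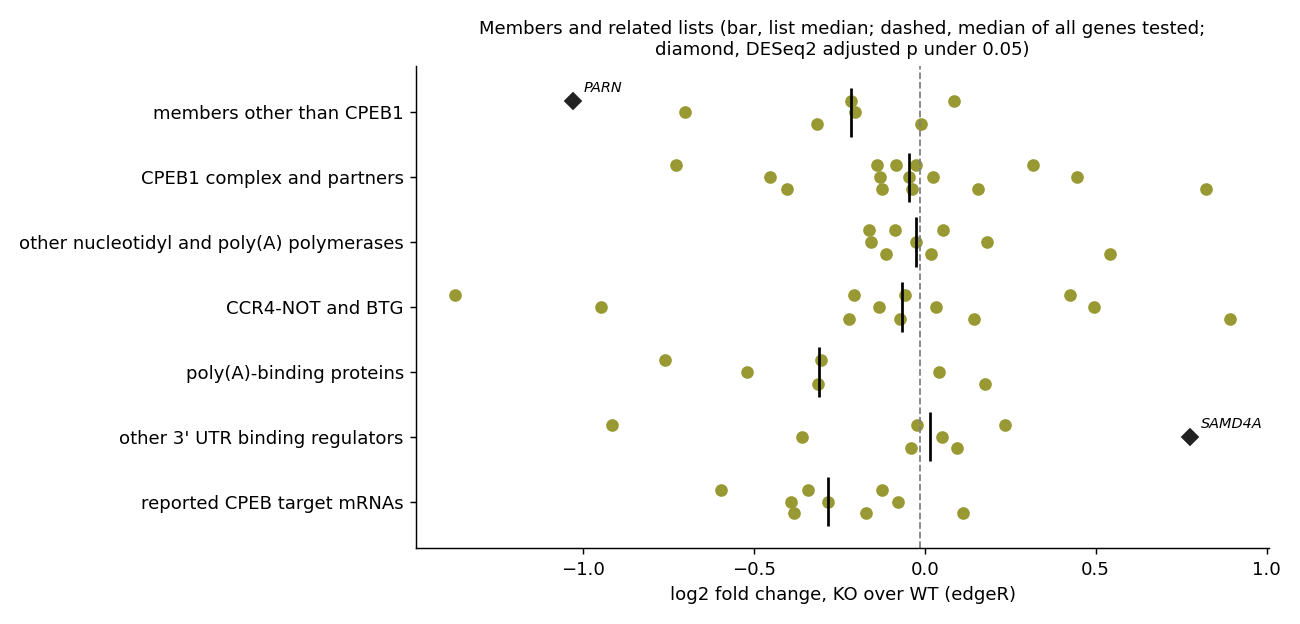
Log2 fold change (KO over WT, edgeR) of the 7 tested genes of the set other than CPEB1 and of 6 related lists; each mark is a gene, black bars are list medians and the dashed line is the median of all 12269 tested genes. PARN and SAMD4A, drawn as diamonds, are the genes that pass in DESeq2, and list medians lie between -0.31 and 0.01.

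Genes with the element were also described as a whole. The 2078 genes with an element in the last 100 bases had a median log2 fold change of -0.02 (quartiles -0.31 and 0.22), and the 8496 without it had -0.03 (quartiles -0.30 and 0.22). The share with both KO libraries below WT was 24.5% with and 23.9% without the element, and DESeq2 called 2.02% and 1.47%. The difference between the medians was 0.0075, small beside the width of either distribution, and it changed sign with windows of 50 or 200 bases. Tail lengths were not measured.

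As context, the libraries held 15141919 and 11750516 counts in WT and 10450048 and 16143634 in KO, and the TMM factors were 0.858 in WT replicate 1 and 1.04 to 1.06 in the others. Of 8 markers of colon epithelium with a row, 5 were at 1 CPM or more in every library, KRT19 and EPCAM among them, while VIL1 and CDH17 were at or near 0 and CDX2 was at 0 in KO replicate 2. Their summed level was 2584 and 2117 CPM in WT and 1522 and 1452 CPM in KO, most of it KRT19, with 2243 and 1744 CPM in WT and 1206 and 1083 CPM in KO. Without KRT19 the sum was 340.9 and 372.4 CPM in WT and 316.3 and 368.4 CPM in KO. Within it, EPCAM had 138.5 and 93.2 CPM in WT and 89.9 and 88.2 CPM in KO. CDH1 had 23.6 and 16.2 CPM in WT and 12.9 and 10.6 CPM in KO. Both were thus lower in both KO libraries, as were 23.5% of all tested genes, while in KRT8, KRT18 and CDX2 the groups overlapped. The part of KRT19 in the results above was not tested. Of 8 markers of other cell types 5 were at 0 in all libraries, and their sum lay between 0.904 and 1.72 CPM.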

How the data were processed

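Each of the 4 libraries has a column of gene-level estimated counts, deposited as whole numbers, and a column of RPKM made by the authors. The submitters' processing notes name Salmon 1.10.1 and hg19. How transcripts were summed to genes, with which annotation, strand setting or filter, was not given in the sources used here. Of 35820 rows, 16471 were 0 in every library, and 1 row carried different names in the tables. From them, edgeR 4.0.16 (R 4.3.3; TMM, filterByExpr, quasi-likelihood F-test on genotype, Benjamini-Hochberg adjustment, threshold 0.05) tested 12269 genes; SE is the size of the log2 fold change over the square root of F. DESeq2 1.42.0 (Wald test, alpha 0.05), limma 3.58.1 on counts and on log2(RPKM + 0.01 or 0.1), other scalings, filters, a replicate block and leaving out each library were alternatives, and edgeR and DESeq2 were tested on simulated data. Transcript ends, gene order and chromosomes came from GENCODE 29 (GRCh38) by symbol, with no gene coordinates given since the builds differ; promoters came from RefSeq (GRCh38.p14). All 10 genes matched. The genes and lists were chosen with earlier results of these data known. Named were all 10 genes, the nearest profiles of the 4 CPEB genes, and the CPEB1 neighbours. Per list, genes called by either tool were named, with those of smallest edgeR p added up to 3. A few others, such as EIF4ENIF1, MSI1 and some neighbours of PARN, were named outside this rule. Sites on chromosome 8 and the values of 1 neighbour of CPEB1 are not reported here.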

Additional observations from a re-analysis of the deposited data

How the results depend on the processing

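EdgeR called 1 gene of all tested. The count was 187 with DESeq2, 42 with library totals alone, 34 without a filter, 19 and 6 with limma on log2(RPKM + 0.01) and log2(RPKM + 0.1), and 0 to 575 when 1 library was left out, the highest without WT replicate 2. Of the 7 tested genes other than CPEB1, 0 were called in edgeR, 1 in DESeq2 and 0 to 1 with 1 library left out. Their median of -0.22 ranged from -0.38 to -0.0658 with 1 library left out. TENT2 turned to 0.15 with library totals alone and with either RPKM setting, to 0.000805 without a filter, and to 0.0438 and 0.01 without KO replicate 1 and WT replicate 1 (range -0.063 to 0.0438). CPEB3 turned to 0.072 without KO replicate 1 (range -0.56 to 0.072), PAN3 to -0.0205 without WT replicate 2 (range -0.0205 to 0.22), and TOB1 to 0.0016 without KO replicate 2 and 0.65 without WT replicate 1 (range -2.04 to 0.65). CPEB4, PAN2 and PARN kept their direction in all 13 alternatives. The difference between genes with and without the element was 0.0075, and -0.0024 and -0.014 with windows of 50 and 200 bases. For these changes the cause was not tested.

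Replicate numbers were shared in the labels without a stated common origin. The deviations of same-numbered libraries from their group means had a correlation of 0.058 across 12269 genes, and with the replicate block edgeR called 1 gene and 0 of the 7. DESeq2 fits without 1 library and with the block, for PARN and SAMD4A, were added after the data were seen. The few counts of CPEB2 and TOB2, 10 and 18 over all libraries, limit what could be detected for them.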
